A study of Mus musculus with 20 samples.

Results

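Gene expression in granulocyte-macrophage progenitors (GMPs) was compared between CreER-Rptor-flox/flox mice and wild-type (WT) mice. The comparison used 6 of the 20 arrays of the series, 3 of Rptor GMPs and 3 of WT GMPs, chosen by their titles. It covers 22180 genes with a probe set of their own, of which 16638 were bright enough to be tested. Rptor GMPs came from mice that carry CreER, a Cre recombinase held inactive until a ligand of its oestrogen receptor part is given, and alleles of Rptor flanked by recombination sites. WT GMPs carried the normal Rptor gene. Both groups came from female mice on a C57BL/6 background, and their cells were freshly sorted from bone marrow. Induction of Cre and its timing, the promoter that drives CreER, the age of the mice and the Cre status of WT mice are not given by the labels. Nor do the labels tell if the 3 arrays of a genotype stand for separate animals. The p-values therefore cover the spread among arrays alone, shared over the groups of all 20 arrays, and that spread may be technical.

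Rptor encodes Raptor, the scaffold that brings substrates to the kinase mTOR in the complex mTORC1. When growth factors and amino acids are plentiful, mTORC1 promotes translation, ribosome production and lipid synthesis and restrains lysosome biogenesis and autophagy. GMPs are marrow cells committed to the granulocyte and monocyte lines. The transcription factors Irf8 and Klf4 and the M-CSF receptor Csf1r favour monocytes, while the C/EBP factors, Gfi1 and the G-CSF receptor Csf3r favour neutrophils.

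All values below are signals on the log2 scale, where a difference of 1 is a doubling of signal. Each change is Rptor GMPs minus WT GMPs, followed by its standard error (SE) from limma, and a gene was called at a limma adjusted p under 0.05. The median signal of the 6 arrays lay between 4.80 and 4.84. Arrays of the same genotype correlated at 0.988 or higher, against at most 0.987 between genotypes. The labelled cell type was checked on genes of primary granules, which GMPs are known to make, and on those of the sorting markers. Mpo (myeloperoxidase) read 12.89, 12.86 and 12.75 in Rptor GMPs, against 12.84, 12.82 and 12.88 in WT GMPs, and the elastase gene Elane, the proteinase gene Prtn3 and Ctsg (cathepsin G) differed by 0.03, 0.06 and 0.13 with no call. The stem cell factor receptor gene Kit (0.29, adjusted p = 0.123) and the Fc receptor gene Fcgr3 (-0.07, adjusted p = 0.84) were not called either. The remaining marker, Cd34, read 8.96, 8.73 and 8.97 in Rptor GMPs, against 10.28, 10.29 and 10.20 in WT GMPs. Every Rptor array lay below every WT array, and Cd34 fell by 1.37 ± 0.15 (limma adjusted p = 1.27e-06).

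The genotypes differed at many genes. Of the 16638 tested genes, 1980 were called (11.9%), 727 of them higher (4.37%) and 1253 lower (7.53%) in Rptor GMPs. With each array centred on its median, the split was 511 higher and 1597 lower. Among the called genes, 116 rose and 198 fell by at least 2-fold, 17 rose and 33 fell by at least 4-fold, and 3 rose and 6 fell by at least 8-fold. The median change over all tested genes was 0.02, and the middle 50% of the genes lay between -0.15 and 0.15. The 3 arrays of one genotype did not overlap the 3 of the other for 5389 genes (32.4%), of which 1911 were called. The smallest called change was 0.26, at a median SE of 0.14. The count of calls fell to 1183 without WT replicate 2 and to 1256 without Rptor replicate 2. The lists described next, 43 in all with 1508 tested genes, are to be read against these shares.

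Rptor itself could not be used to check the labels, since the position of its probes relative to the floxed part was not known here. Its probe set read 9.25, 9.24 and 8.85 in Rptor GMPs, against 9.25, 9.17 and 9.44 in WT GMPs. The genotypes overlapped, and the change of -0.17 ± 0.13 was not called (limma adjusted p = 0.465). A two-sided exact permutation test gave p = 0.5, where 3 against 3 arrays cannot give less than 0.1. The genes of the kinase Mtor (0.00), of Rictor, the scaffold of mTORC2 (0.04), and of the shared subunit Mlst8 (0.07) were not called.

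Genes that feed nutrient and hormone signals into mTORC1 changed in both directions. Of 74 tested members of the mTOR list, 5 were higher and 8 lower (17.6% called, against 11.9% of all tested genes), with a median change of -0.01. The higher count was 3 without Rptor replicate 1 or 2 and without WT replicate 2 or 3, and the lower count 5 without WT replicate 2. Irs2, an adaptor of the insulin and IGF1 receptors, read 8.55, 8.82 and 8.62 in Rptor GMPs, against 6.87, 6.89 and 7.22 in WT GMPs, a rise of 1.67 ± 0.14 (adjusted p = 6.39e-08). Fnip2, a partner of folliculin in amino acid sensing at the lysosome, rose by 1.09 ± 0.16. Among the 26 tested genes of the amino acid branch, 6 fell and 1 rose. Those that fell included the leucine sensor genes Sesn1 (-0.80 ± 0.13, adjusted p = 0.000137) and Sesn2 (-0.86 ± 0.16, adjusted p = 0.000678) and the Castor family gene Castor2 (-0.85 ± 0.14, adjusted p = 0.00021). Each of these had all 3 Rptor arrays below all 3 WT arrays. Sestrins and Castor proteins are inhibitors upstream of mTORC1. Mitf, a transcription factor that mTORC1 keeps in the cytoplasm, fell by 0.91 ± 0.12 (adjusted p = 1.57e-05). Its relatives Tfeb (-0.04, adjusted p = 0.902) and Tfe3 (-0.39, adjusted p = 0.06) and the folliculin gene Flcn (0.31, adjusted p = 0.0941) were not called. Without Rptor replicate 3, Flcn passed at 0.39 (adjusted p = 0.0477). Tfe3 passed with GMP arrays fitted alone (limma adjusted p = 0.0274) and with GMP and CMP arrays fitted together (limma adjusted p = 0.01).

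The genes that favour monocytes were among those that fell most. Irf8 read 7.88, 7.56 and 6.97 in Rptor GMPs, against 10.28, 10.15 and 10.25 in WT GMPs, 6.75-fold lower (limma adjusted p = 1.19e-09). Klf4 read 5.92, 5.67 and 5.21 in Rptor GMPs, against 7.95, 7.88 and 7.82 in WT GMPs, 4.87-fold lower. Csf1r read 7.36, 7.32 and 7.15 in Rptor GMPs, against 9.51, 9.50 and 9.42 in WT GMPs, 4.58-fold lower. In all 3 genes the lowest WT array stood more than a doubling above the highest Rptor array. The gene of its ligand M-CSF, Csf1, moved the other way and read 8.70, 8.81 and 8.46 in Rptor GMPs, against 7.12, 6.68 and 7.23 in WT GMPs, a rise of 1.65 ± 0.18 (adjusted p = 1.43e-06). Of the 30 tested monocyte and dendritic cell transcription factors, 6 were lower and 2 higher, with a median of -0.21. Besides Irf8 and Klf4, the vitamin D receptor gene Vdr (-1.33 ± 0.15), the interferon signalling factor Irf9 (-0.57 ± 0.12) and Fosb (-1.32 ± 0.30) fell. Id2, an inhibitor of helix-loop-helix factors, rose by 0.88 ± 0.17. The higher count was 1 without Rptor replicate 1 or 2 and without WT replicate 1 or 2. Spi1, which encodes the myeloid master factor PU.1, read 7.86, 7.85 and 7.73 in Rptor GMPs, against 8.05, 7.98 and 8.05 in WT GMPs, and was not called (-0.21 ± 0.12, adjusted p = 0.293).

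**Figure D1:**
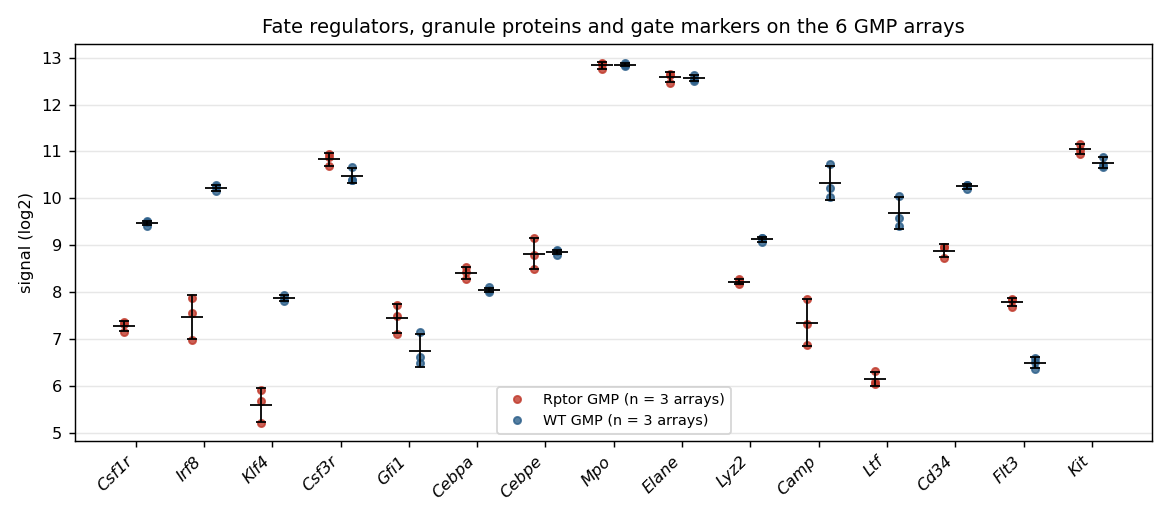
Signal (log2, vertical axis) of 15 genes on each GMP array, Rptor GMPs in red and WT GMPs in blue; points are arrays, bars the mean and SD of 3 arrays. Csf1r, Irf8, Klf4, Lyz2, Camp, Ltf and Cd34 lie lower in Rptor GMPs, Flt3 lies higher, and Mpo and Elane coincide.

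Factors and receptors that favour neutrophils were examined next. Cebpa read 8.44, 8.53 and 8.28 in Rptor GMPs, against 8.05, 8.01 and 8.10 in WT GMPs, groups that did not overlap, yet the change of 0.36 ± 0.13 missed the threshold (adjusted p = 0.0692). Cebpa passed without Rptor replicate 3 (0.43, adjusted p = 0.0484). Cebpe, which drives secondary granule genes, differed by -0.04 ± 0.17 (adjusted p = 0.944) and Csf3r by 0.35 ± 0.20 (adjusted p = 0.314). Gfi1, a repressor of monocyte genes, rose by 0.69 ± 0.20 (adjusted p = 0.0309), with a Rptor range of 7.11 to 7.73 that overlapped the WT range of 6.48 to 7.16. The call of Gfi1 was lost without Rptor replicate 1 (0.67, adjusted p = 0.0929) or 2 (0.55, adjusted p = 0.177) and without WT replicate 1 (0.62, adjusted p = 0.117) or 2 (0.55, adjusted p = 0.17). The proto-oncogene Myc read 10.43, 10.26 and 10.50 in Rptor GMPs, against 9.91, 9.80 and 10.03 in WT GMPs, a rise of 0.49 ± 0.14 (adjusted p = 0.0309). The call of Myc was lost without Rptor replicate 1 (0.47, adjusted p = 0.0952) or 3 (0.44, adjusted p = 0.0915) and without WT replicate 1 (0.48, adjusted p = 0.0837) or 2 (0.43, adjusted p = 0.134). With arrays centred on their median, Myc changed by 0.42 (adjusted p = 0.0623). Myb, needed for progenitor growth, differed by 0.03.

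Among 42 tested granulocyte and progenitor transcription factors, 8 were higher and 3 lower (26.2% called, against 11.9% of all tested genes), with a median of 0.19. The higher count fell to 4 without Rptor replicate 1 or WT replicate 1 and to 3 without Rptor replicate 2 or WT replicate 2, and the lower count to 1 without Rptor replicate 1 or WT replicate 1 or 2. Gata2, a factor of stem cells, mast cells and megakaryocytes, read 8.39, 8.71 and 8.35 in Rptor GMPs, against 7.47, 7.19 and 7.44 in WT GMPs, a rise of 1.12 ± 0.19 (limma adjusted p = 0.000248). Stat3, which carries G-CSF and IL-6 signals, rose by 0.58 ± 0.11, with Rptor arrays between 10.64 and 10.75 and WT arrays between 10.01 and 10.21. Sox4, a progenitor factor, fell by 0.78 ± 0.19 (adjusted p = 0.0088).

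Cytokine receptors split in both directions. Of 30 tested members, 7 were higher and 6 lower, with a median of 0.01, and 43.3% of the list was called. Il1r2, a decoy that binds interleukin-1 without signalling, read 8.61, 9.56 and 9.18 in Rptor GMPs, against 5.16, 5.43 and 5.73 in WT GMPs, 12.8-fold higher. Flt3, the receptor for Flt3 ligand on multipotent and dendritic progenitors, read 7.83, 7.69 and 7.86 in Rptor GMPs, against 6.6, 6.52 and 6.37 in WT GMPs, a rise of 1.30 ± 0.18 (limma adjusted p = 2.55e-05). Both genes were separated by more than the whole range within either genotype. The shared receptor chain of interleukin-4 and interleukin-13, Il4ra, rose by 1.29 ± 0.19 and the common beta chain gene Csf2rb by 0.60 ± 0.12. Il31ra, a receptor of the IL-6 family, fell by 3.00 ± 0.22 and Il10ra, the interleukin-10 receptor, by 1.25 ± 0.16. The GM-CSF receptor gene Csf2ra (-0.01) and the interleukin-3 receptor gene Il3ra (-0.14) were not called.

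Primary and secondary granule lists were both called in each direction. Of 23 tested members of the primary granule list, 1 was higher and 3 lower (17.4% called), with a median of 0.03. Those that fell were Lyz2 (lysozyme, -0.90 ± 0.09, adjusted p = 6.57e-07), Clec12a (-0.80 ± 0.10), which encodes an inhibitory lectin receptor of the cell surface and no granule protein, and Ctsc (cathepsin C, -0.56 ± 0.12), which activates granule serine proteases. Of 37 tested secondary granule and mature neutrophil genes, 7 were higher and 8 lower, with a median of 0.09. Ltf, the lactoferrin gene, read 6.33, 6.09 and 6.05 in Rptor GMPs, against 9.41, 10.06 and 9.58 in WT GMPs, 11.5-fold lower. Camp, which encodes the antimicrobial peptide cathelicidin, read 7.33, 7.86 and 6.87 in Rptor GMPs, against 10.03, 10.74 and 10.22 in WT GMPs, 7.85-fold lower. Ngp (neutrophilic granule protein, -1.18 ± 0.13) and the gelatinase gene Mmp9 (-1.51 ± 0.36, adjusted p = 0.00782) also fell, all without overlap. Other genes of the same list rose. Lcn2 (lipocalin 2) read 9.63, 9.86 and 9.72 in Rptor GMPs, against 8.62, 8.87 and 8.80 in WT GMPs, a rise of 0.97 ± 0.23 (adjusted p = 0.00725). S100a8, a calcium-binding protein of neutrophils and monocytes, rose by 0.51 ± 0.11, and Chil3, a chitinase-like protein, by 1.91 ± 0.21. The higher count of this list was 4 without Rptor replicate 2 or WT replicate 1.

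Monocyte and macrophage genes were called at a share of 42.2%, also in both directions. Of 64 tested members, 12 were higher and 15 lower, with a median of 0.00. Clec7a (Dectin-1), which recognises fungal glucans, read 7.12, 7.05 and 6.90 in Rptor GMPs, against 9.63, 9.71 and 9.37 in WT GMPs, 5.83-fold lower. Fn1 (fibronectin) was 4.66-fold and Pld4, an endolysosomal nuclease, 4.39-fold lower, and Ms4a6c, of a family of membrane-spanning proteins, was 2.82-fold lower. Adgre1, which encodes the macrophage marker F4/80, read 5.79, 5.45 and 5.86 in Rptor GMPs, against 6.85, 6.82 and 6.62 in WT GMPs, a fall of 1.06 ± 0.13 on the log2 scale (adjusted p = 8.76e-06). Itga1, the collagen-binding integrin α1, was 8.69-fold lower, with Rptor arrays from 5.60 to 5.92 and WT arrays from 8.74 to 9.0. The chemokine receptor gene Ccr2 (-0.13, adjusted p = 0.705) and F13a1, coagulation factor XIII A (-0.21, adjusted p = 0.386), both typical of monocytes, were not called. Gpnmb, a glycoprotein of macrophage lysosomes, made the largest rise of all named genes. Gpnmb read 8.82, 8.90 and 8.91 in Rptor GMPs, against 4.48, 5.22 and 4.46 in WT GMPs, 17.8-fold higher (adjusted p = 2.73e-12).

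Receptors for microbial products fell more often than they rose. Of 26 tested Toll-like receptor and inflammasome genes, 11 were lower and 5 higher, with a median of -0.30. Cd180 and Ly86, which encode the 2 chains of a surface complex related to Toll-like receptor 4, fell together. Ly86 read 8.39, 8.25 and 7.72 in Rptor GMPs, against 10.43, 10.51 and 10.51 in WT GMPs, and Cd180 read 5.74, 5.78 and 5.30 in Rptor GMPs, against 7.61, 7.56 and 7.71 in WT GMPs. They were 5.14-fold and 4.07-fold lower, with no overlap. Of 29 tested chemokines and their receptors, 1 rose and 1 fell, a share of 6.9%. Ccr1, a receptor for inflammatory chemokines, read 6.04, 6.13 and 6.48 in Rptor GMPs, against 4.62, 4.35 and 4.64 in WT GMPs, a rise of 1.68 ± 0.22. Cx3cr1, the fractalkine receptor of monocytes, fell by 1.32 ± 0.17.

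Markers of other cell types that the sort could hold moved with the genotype for several lists, and fewer cells of a type cannot be told apart from less RNA per cell in these samples. Mean list levels did not overlap between genotypes for mast cell and basophil genes (7.46 to 7.60 in Rptor GMPs, 7.14 to 7.18 in WT GMPs), erythroid genes (6.42 to 7.08 in Rptor GMPs, 6.08 to 6.23 in WT GMPs) and megakaryocyte genes (6.42 to 6.52 in Rptor GMPs, 6.12 to 6.28 in WT GMPs), all higher. Dendritic cell and MHC class II genes also lay higher without overlap (6.22 to 6.33 in Rptor GMPs, 6.08 to 6.18 in WT GMPs). Eosinophil genes lay lower (6.57 to 6.79 in Rptor GMPs, 7.29 to 7.78 in WT GMPs). So did monocyte and macrophage genes (6.91 to 6.94 in Rptor GMPs, 7.02 to 7.10 in WT GMPs). Yet 12 of the monocyte and macrophage genes were called higher and 15 lower, with a median change of 0.00. Calls in the dendritic list were mixed as well, with 3 members higher and 2 lower. The part of such cells in the other changes was not tested. B cell genes (4.98 to 5.09 in Rptor GMPs, 5.02 to 5.16 in WT GMPs) and T and NK cell genes (5.30 to 5.38 in Rptor GMPs, 5.32 to 5.45 in WT GMPs) overlapped. Primary granule genes overlapped too (10.28 to 10.34 in Rptor GMPs, 10.31 to 10.37 in WT GMPs). The same held for secondary granule genes (8.08 to 8.24 in Rptor GMPs, 8.20 to 8.49 in WT GMPs). Stem cell genes also overlapped (6.41 to 6.49 in Rptor GMPs, 6.31 to 6.42 in WT GMPs). The lowest value of any probe set was 1.77, so a value above 0 does not show that a marker was present.

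**Figure D2:**
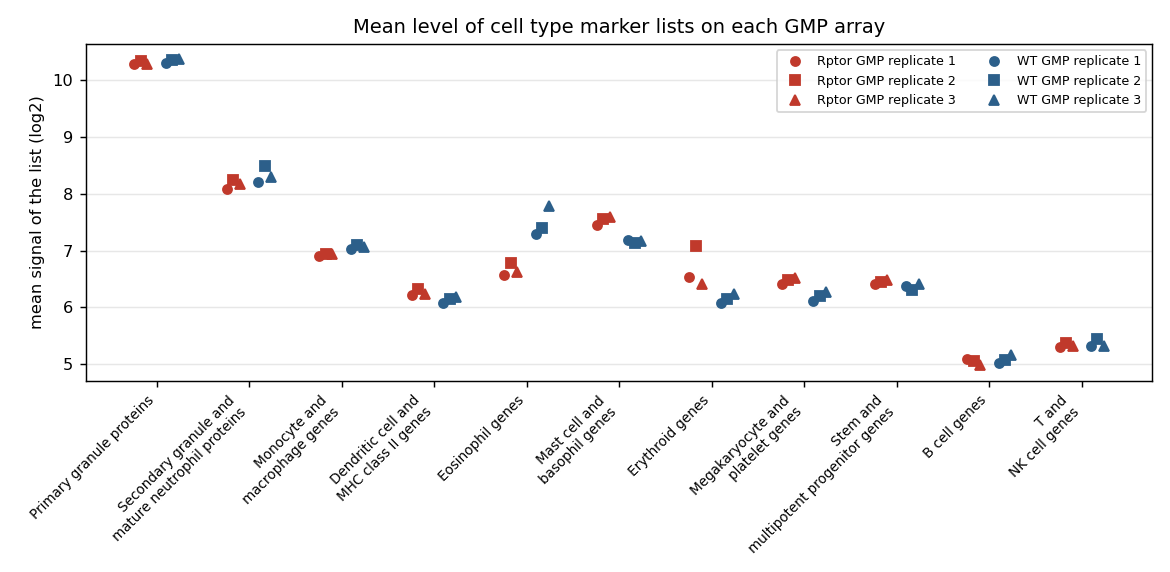
Mean signal (log2, vertical axis) of the tested members of 11 cell type lists on each GMP array, Rptor GMPs in red and WT GMPs in blue, with one marker shape per replicate number. Erythroid genes are highest on Rptor replicate 2, at 7.08, and eosinophil genes on WT replicate 3, at 7.78.

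Of 18 tested mast cell and basophil genes, 7 were higher and 1 lower, with a median of 0.47. The lower gene was Mitf, named above among the mTOR genes, with a change of -0.91. Cpa3, the mast cell carboxypeptidase, read 10.08, 10.24 and 10.67 in Rptor GMPs, against 9.36, 9.27 and 9.34 in WT GMPs, a rise of 1.00 ± 0.22 (limma adjusted p = 0.0036). Itga2b, the integrin αIIb of megakaryocytes and early basophils, rose by 0.90 ± 0.15, whereas the basophil protease gene Mcpt8 (0.18, adjusted p = 0.655) and the IgE receptor gene Fcer1a (0.59, adjusted p = 0.122) were not called. For Fcer1a all Rptor arrays lay above all WT arrays. It passed with GMP arrays fitted alone (limma adjusted p = 0.00808) and with GMP and CMP arrays fitted together (limma adjusted p = 0.00705). The higher count was 4 without Rptor replicate 2 or WT replicate 1 or 3, and 3 without Rptor replicate 3.

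Of 33 tested erythroid genes, 9 were higher and 1 lower, with a median of 0.42, and 1 array decided part of this. Car1, a carbonic anhydrase of red cell precursors, read 8.96, 10.37 and 8.40 in Rptor GMPs, against 6.21, 6.76 and 6.98 in WT GMPs. Aqp1, a water channel, read 6.43, 7.21 and 5.92 in Rptor GMPs, against 5.03, 5.47 and 5.69 in WT GMPs. Rptor replicate 2 was the highest array for both, and without it 5 erythroid genes were called higher and 0 lower. The 1 lower call was also lost without Rptor replicate 1 and without WT replicate 2 or 3. Slc25a37 (mitoferrin), which imports iron into mitochondria, was even across arrays, at 10.41, 10.46 and 10.58 in Rptor GMPs, against 9.64, 9.85 and 9.92 in WT GMPs, a rise of 0.68 ± 0.11. The erythroid master factor gene Klf1 (0.51, adjusted p = 0.214) and the erythropoietin receptor gene Epor (0.60, adjusted p = 0.0834) were not called, but both passed without Rptor replicate 3 (0.79 with adjusted p = 0.0386, and 0.85 with adjusted p = 0.0127).

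Of 24 tested megakaryocyte and platelet genes, 6 were higher and 2 lower (1 lower without Rptor replicate 1 or 3 and without WT replicate 2 or 3). Thbs1, the secreted glycoprotein thrombospondin 1, read 9.96, 9.75 and 9.76 in Rptor GMPs, against 7.34, 6.81 and 7.42 in WT GMPs, 6.21-fold higher. Selp (P-selectin) rose by 1.38 ± 0.27 and F2r, a thrombin receptor, by 0.80 ± 0.17. Gng11 went the other way, with a change of -0.66, the largest fall of the list, called under all 16 alternatives. Of 9 tested eosinophil genes, 4 were lower and 0 higher, and the count was 2 without Rptor replicate 1 or 2 and without WT replicate 1 or 3. Epx, eosinophil peroxidase, read 6.92, 7.14 and 6.58 in Rptor GMPs, against 10.04, 9.78 and 10.85 in WT GMPs, 10.2-fold lower. The eosinophil surface receptor genes Siglecf (-0.31, adjusted p = 0.21) and Il5ra (-0.29, adjusted p = 0.395) were not called. Of 21 tested dendritic cell and MHC class II genes, 3 were higher and 2 lower, with a median of 0.17. The antigen-presenting alpha chain gene H2-Aa read 7.15, 7.59 and 7.31 in Rptor GMPs, against 5.65, 6.08 and 5.55 in WT GMPs, a rise of 1.59 ± 0.21, whereas the peptide-loading genes H2-DMa (-1.10 ± 0.11) and H2-DMb2 (-1.07 ± 0.19) fell.

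Genes of mitosis were lower almost throughout. Of 84 tested G2 and mitosis genes, 70 were called lower (83.3%, against 7.53% of all tested genes) and 0 higher, with a median of -0.57. The change was below 0 for 82 of the 84. Without WT replicate 2, 45 were called lower. All 3 Rptor arrays lay below all 3 WT arrays for 75 members, where 32.4% of all tested genes were separated in either direction. The list was not even across roles, with 29 of 30 spindle and cytokinesis genes, 27 of 32 kinetochore and chromosome genes, 11 of 17 kinase and cyclin genes and 3 of 5 subunits or activators of the anaphase-promoting complex called lower. Kif23, a kinesin of the central spindle, read 7.82, 7.51 and 8.08 in Rptor GMPs, against 9.01, 9.38 and 9.16 in WT GMPs, 2.60-fold lower (limma adjusted p = 6.57e-07). Nusap1, a spindle protein, and Ncaph, a condensin subunit, were 1.98-fold and 1.75-fold lower. Top2a, which untangles chromosomes, fell by 0.79 ± 0.13, the proliferation marker gene Mki67 by 0.63 ± 0.12 and the mitotic kinase gene Plk1 by 0.56 ± 0.11. Cdk1, the main mitotic cyclin-dependent kinase, differed by -0.24 ± 0.12 and was not called (adjusted p = 0.226).

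The cell cycle homology region, TTTGAA, is a motif through which many mitotic promoters are repressed early in the cycle. It was found on either strand in 40 of the 59 called members with a promoter sequence (67.8%), against 14.9% of the promoters of all tested genes (1921 of 12921). Among all tested members, called or not, 46 of 70 held it (65.7%). The windows run from 250 bases before to 50 bases after the start of the gene, from RefSeq on GRCm38.p6, and a match is a description and not a shown binding site. Only bases before the start are printed, so the choice was among the 20 of these 40 genes with a match there, which leaves out Kif23. The 2 of smallest p are shown as 120 bases, with the motif in capitals. In both it lies 30 bases before the start.

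Ckap2l (chr2:129297213-129297332, minus strand): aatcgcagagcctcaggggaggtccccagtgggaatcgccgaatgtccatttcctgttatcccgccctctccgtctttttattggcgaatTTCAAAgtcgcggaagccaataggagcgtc
Prc1 (chr7:80294356-80294475, plus strand): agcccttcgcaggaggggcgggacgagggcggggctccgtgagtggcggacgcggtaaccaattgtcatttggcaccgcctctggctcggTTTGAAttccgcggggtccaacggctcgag

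Ckap2l, a microtubule-binding spindle protein, read 5.77, 5.89 and 5.72 in Rptor GMPs, against 6.62, 6.69 and 6.52 in WT GMPs, 1.77-fold lower. Prc1, which bundles the microtubules of the central spindle, read 7.51, 7.35 and 7.66 in Rptor GMPs, against 8.37, 8.63 and 8.24 in WT GMPs, a fall of 0.91 ± 0.14 on the log2 scale (limma adjusted p = 0.000171). Neither gene had overlapping groups.

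Lists of the earlier phases of the cycle had medians below 0 that were smaller in size. Of 49 tested S phase and replication genes, 12 were lower and 0 higher (24.5% called, against 11.9% of all tested genes), with a median of -0.23 and 43 changes below 0. The count was 6 without Rptor replicate 1 or 2 or WT replicate 2, and 7 without WT replicate 1. Pola1, the catalytic subunit of DNA polymerase alpha, read 8.52, 8.16 and 8.66 in Rptor GMPs, against 9.23, 9.39 and 9.0 in WT GMPs, a fall of 0.76 ± 0.14. Lig1 (DNA ligase 1) fell by 0.60 ± 0.10 and Tk1 (thymidine kinase) by 0.58 ± 0.11. Of 31 G1 cyclins, kinases and inhibitors, 5 were lower and 1 higher (19.4% called), with a median of -0.17. Without Rptor replicate 1 or WT replicate 2 the lower count was 3. The higher call was lost without Rptor replicate 1 or 2 and without WT replicate 1 or 3. Ccng2, an atypical cyclin linked to cell cycle exit, fell by 0.75 ± 0.14 and the kinase inhibitor gene Cdkn2c by 0.86 ± 0.18. Of 16 tested replication-dependent histone genes, with a median of -0.19, 1 was lower (6.25%, against 7.53% of all tested genes), H4c9 (-0.65 ± 0.14). Without Rptor replicate 3 or WT replicate 3, 2 were lower.

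**Figure D3:**
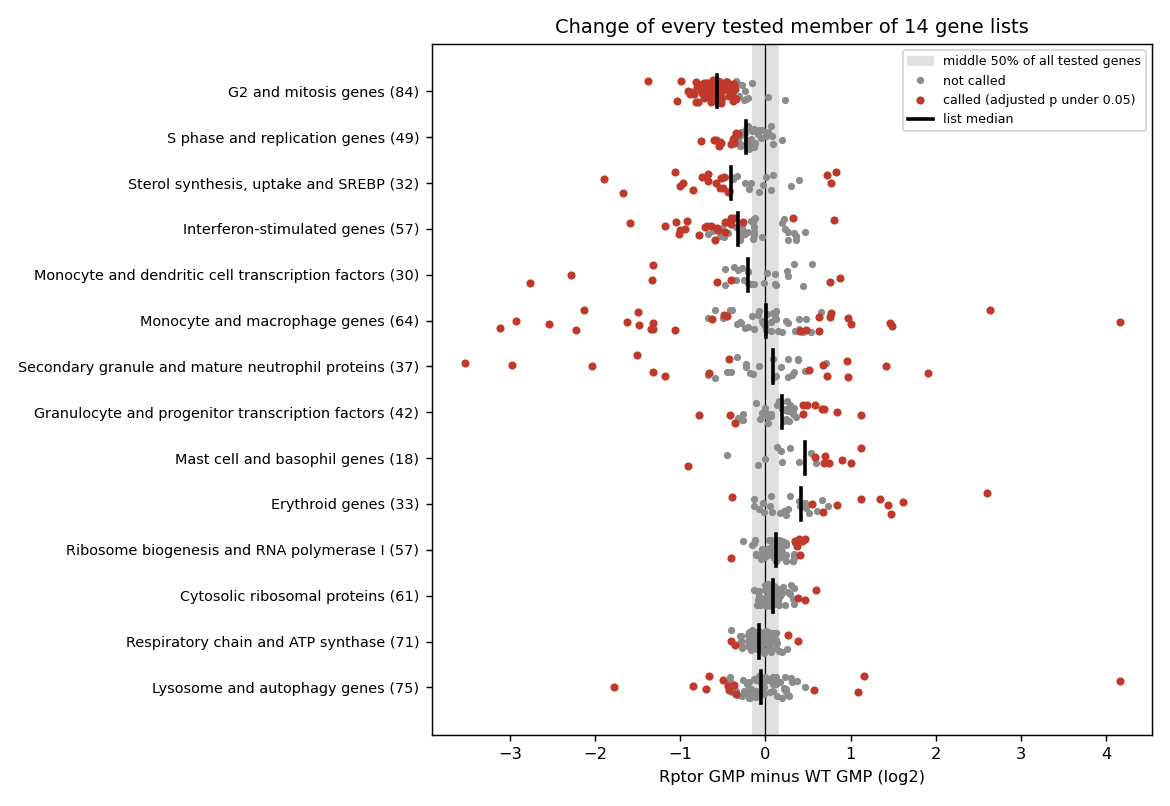
Change of each tested member of 14 gene lists (Rptor GMP minus WT GMP, log2, horizontal axis), with the number of tested members beside the list name. Red points are called, grey points are not, black bars are list medians and the shaded band holds the middle 50% of all tested genes; the G2 and mitosis list has its median at -0.57.

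Enzymes that make cholesterol were lower in Rptor GMPs. Of 32 tested members of the sterol list, 15 were lower and 3 higher, with a median of -0.41. The calls lay in sterol enzymes (7 of 11 lower), mevalonate enzymes (3 of 6 lower) and uptake and transport (2 of 4 lower), whereas 2 of 4 efflux genes were higher and 1 lower. Regulators were split, with 2 of 7 lower and 1 higher. Sqle, squalene epoxidase, a rate-limiting step after the mevalonate pathway, read 5.84, 6.08 and 5.88 in Rptor GMPs, against 7.81, 7.53 and 7.48 in WT GMPs, 3.19-fold lower (limma adjusted p = 5.45e-07). Msmo1 (-0.97 ± 0.15) and Cyp51 (-0.85 ± 0.14), both demethylating enzymes, and Stard4 (-1.06 ± 0.12), a sterol carrier, fell too. Srebf2, which encodes the master factor SREBP2 of the pathway, read 8.26, 8.32 and 8.25 in Rptor GMPs, against 8.76, 8.69 and 8.93 in WT GMPs, a fall of 0.52 ± 0.11. The largest fall of the list was that of Abca9, a transporter of the ABCA family, at 3.72-fold. The sterol regulatory element TCACNCCAC was present in 1 of 11 promoters of members called lower (9.09%) and in 1 of 26 promoters of tested members (3.85%), against 1.47% of all promoters. That 1 gene, Hmgcs1, encodes the synthase that starts the mevalonate pathway. The element, in capitals, lies 137 bases before the start.

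Hmgcs1 (chr13:119690159-119690278, plus strand): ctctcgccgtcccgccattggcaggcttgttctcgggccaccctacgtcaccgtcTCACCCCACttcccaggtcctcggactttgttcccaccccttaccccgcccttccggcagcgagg

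Hmgcs1 read 6.56, 5.96 and 6.56 in Rptor GMPs, against 7.36, 7.20 and 6.77 in WT GMPs, a fall of 0.75 ± 0.19 (limma adjusted p = 0.0104) with groups that nearly touch. The call of Hmgcs1 was lost without Rptor replicate 2 (-0.55, adjusted p = 0.0924) and without WT replicate 1 (-0.62, adjusted p = 0.0701) or 2 (-0.70, adjusted p = 0.052).

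Fatty acid and lipid handling genes were mixed. Of 41 tested, 8 were higher and 4 lower, and the median was -0.03. The lower count was 2 without Rptor replicate 2 or WT replicate 1. Lipg, endothelial lipase, read 7.38, 8.57 and 7.64 in Rptor GMPs, against 5.00, 5.14 and 5.23 in WT GMPs, 6.70-fold higher. Dgat2, which makes triglycerides, read 9.36, 9.39 and 9.05 in Rptor GMPs, against 7.24, 7.02 and 7.47 in WT GMPs, 4.07-fold higher. The genes of the mitochondrial fatty acid importer Cpt1a (0.74 ± 0.14) and of its regulator acetyl-CoA carboxylase 2, Acacb (0.75 ± 0.14), rose. The desaturase gene Fads2 fell by 1.42 ± 0.18 and the lysosomal lipase gene Lipa by 0.70 ± 0.12.

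Interferon-stimulated genes were lower more often than higher. Of 57 tested members, 20 were lower and 2 higher, with a median of -0.32 and 46 changes below 0. The lower count was 13 without WT replicate 2, and the higher count 1 without Rptor replicate 1 or 3 or WT replicate 1. Oasl2, an antiviral protein, read 4.90, 5.44 and 4.82 in Rptor GMPs, against 6.56, 6.72 and 6.63 in WT GMPs, 3.01-fold lower (limma adjusted p = 4.97e-07). Usp18, which restrains interferon receptor signalling, was 2.26-fold and the ADP-ribosyltransferase gene Parp14 1.99-fold lower. Psmb9, a subunit of the immunoproteasome, read 9.84, 9.94 and 9.96 in Rptor GMPs, against 10.54, 10.62 and 10.70 in WT GMPs. Ifitm3, a membrane protein that blocks virus entry, was an exception and rose by 0.81 ± 0.12, with Rptor arrays from 10.11 to 10.29 and WT arrays from 9.32 to 9.45. The Ifi200 family of DNA sensors, encoded on chromosome 1, had 4 of 6 tested members lower. Ifi209 read 5.97, 5.35 and 5.53 in Rptor GMPs, against 9.86, 10.27 and 9.51 in WT GMPs, 19.2-fold lower, and Mndal was 4.45-fold lower. Ifi205 (0.25) and Ifi207 (0.13) were not called. These paralogues are alike in sequence, so that probes may share signal.

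The interferon-stimulated response element GAAANNGAA was present in 7 of 14 promoters of members called lower (50%), against 8.7% of all promoters. It was present in 23 of the 46 tested members with a promoter, the same share, whether called or not. The element is in capitals, 35 bases before the start of Trim30a and 52 before that of Gbp7.

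Trim30a (chr7:104465194-104465313, minus strand): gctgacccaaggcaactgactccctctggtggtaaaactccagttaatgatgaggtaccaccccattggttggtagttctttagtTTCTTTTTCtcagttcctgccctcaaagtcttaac
Gbp7 (chr3:142530216-142530335, plus strand): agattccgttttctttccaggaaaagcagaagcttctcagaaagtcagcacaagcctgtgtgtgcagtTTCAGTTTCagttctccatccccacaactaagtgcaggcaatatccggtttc

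Trim30a, a ubiquitin ligase that dampens inflammatory signals, read 6.11, 6.03 and 6.50 in Rptor GMPs, against 7.12, 7.38 and 7.19 in WT GMPs, a fall of 1.01 ± 0.20 (limma adjusted p = 0.00132). Gbp7, a guanylate-binding protein, fell by 0.78 ± 0.20 (adjusted p = 0.0133). The call of Gbp7 was lost without Rptor replicate 1 (-0.74, adjusted p = 0.0528) or 2 (-0.61, adjusted p = 0.104) and without WT replicate 2 (-0.71, adjusted p = 0.0717).

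**Figure D4:**
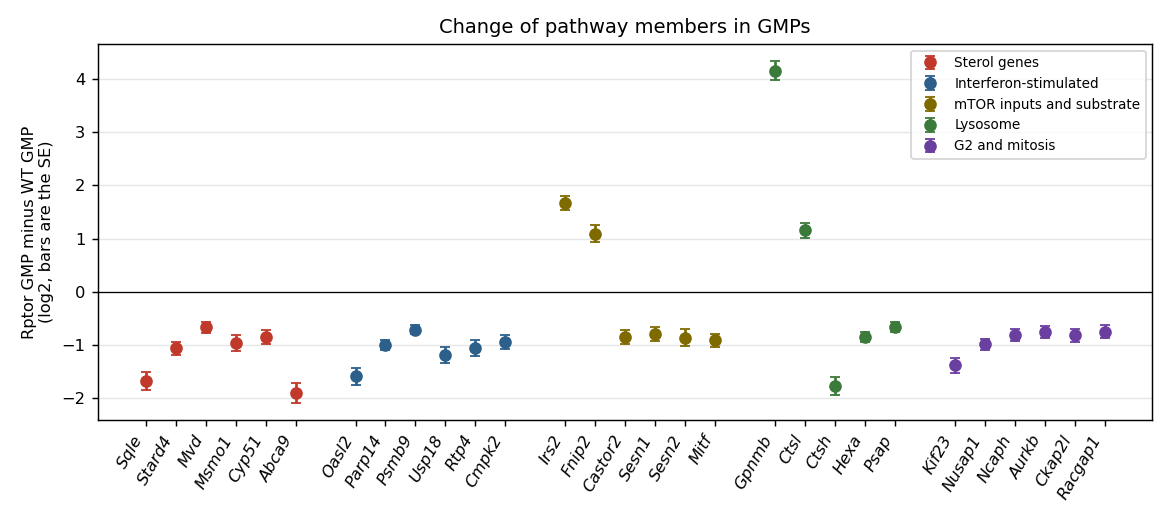
Change (Rptor GMP minus WT GMP, log2, vertical axis) of members of 5 lists, each point the estimate and each bar its SE. Sterol, interferon-stimulated and mitotic genes lie below 0, while Irs2, Fnip2, Gpnmb and Ctsl lie above it.

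Translation is a main output of mTORC1, and its genes were compared at the level of messenger RNA. Of 61 cytosolic ribosomal protein genes, 3 were higher and 0 lower (4.92%, against 11.9% of all tested genes), with a median of 0.09. Rpl3, a large subunit protein, rose by 0.59 ± 0.12, and the count of higher genes was 1 without Rptor replicate 1 or 2 or WT replicate 1 or 2. The Rptor arrays lay above the WT arrays without overlap for 23 of the 61 and below for 0, against 2690 above and 2699 below of all 16638 tested genes. Ribosome biogenesis genes had 6 of 57 higher and 1 lower (12.3% called), with a median of 0.13, and 27 lay above and 2 below without overlap. The count of 6 called higher became 1 to 3 when any one GMP array was left out, with 2 without Rptor replicate 1, 3 without replicate 2 or 3, 1 without WT replicate 1 or 3 and 2 without replicate 2. Ltv1, a small-subunit export factor, fell by 0.41 ± 0.09. Translation factors had 2 of 42 higher and 1 lower (7.14% called). Their higher count was 0 or 1 when any array was left out, and their lower count 2 without Rptor replicate 3 or WT replicate 3. Eif4e3, a relative of the cap-binding protein, fell by 0.69 ± 0.15 and Eef2, the translocation factor, was not called (0.20, adjusted p = 0.135).

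Lists of energy metabolism differed in their share of calls. Of 71 nuclear genes of the respiratory chain and ATP synthase, 2 were higher and 2 lower (5.63%), with a median of -0.08. Those higher counts were 0 or 1 when any array was left out, and the lower counts were 0 without Rptor replicate 1 or 2 or WT replicate 2, 1 without WT replicate 1 or 3 and 4 without Rptor replicate 3. Idh1, the cytosolic isocitrate dehydrogenase that makes NADPH, stood out among 26 tested tricarboxylic acid cycle and related genes. Idh1 read 8.8, 8.86 and 8.93 in Rptor GMPs, against 9.93, 10.01 and 9.84 in WT GMPs, 2.09-fold lower. In glycolysis and the pentose phosphate pathway, 5 of 33 tested genes were lower and 3 higher (24.2% called), and the lower count was 3 without any one of Rptor replicates 1 and 2 or WT replicates 1, 2 and 3. The hexokinase gene Hk3, which is typical of myeloid cells, read 8.06, 7.96 and 7.51 in Rptor GMPs, against 9.13, 9.32 and 9.22 in WT GMPs, 2.60-fold lower. The glucose transporter gene Slc2a1 moved the other way at 1.48-fold (adjusted p = 0.00868), a call lost with the mean of its probe sets (0.33, adjusted p = 0.0791).

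Of 48 tested genes of amino acid supply and one-carbon metabolism, 4 were higher and 4 lower (16.7% called, against 11.9% of all tested genes), and the median was 0.03. The higher count was 1 without Rptor replicate 1, 2 without Rptor replicate 2 or WT replicate 1 and 0 without WT replicate 2. The lower count was 2 without Rptor replicate 1 or WT replicate 1 or 2 and 7 without Rptor replicate 3. Mthfd2, the mitochondrial one-carbon enzyme that the factor ATF4 induces, read 5.64, 5.55 and 5.77 in Rptor GMPs, against 6.69, 6.84 and 6.62 in WT GMPs, 2.09-fold lower (limma adjusted p = 3.57e-06). The groups did not overlap.

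Lysosome and autophagy genes did not move as one. Of 75 tested members, 9 were lower and 4 higher (17.3% called, against 11.9% of all tested genes), with a median of -0.05. Hydrolases held most of the calls, with 5 of 26 lower and 2 higher. The proteases of the cathepsin family diverged, since Ctsl read 7.10, 7.31 and 7.41 in Rptor GMPs, against 6.10, 6.12 and 6.12 in WT GMPs, a rise of 1.16 ± 0.14, while Ctsh read 8.39, 8.22 and 7.86 in Rptor GMPs, against 9.77, 10.02 and 10.03 in WT GMPs, a fall of 1.78 ± 0.17. Hexa (hexosaminidase A) fell by 0.85 ± 0.10 and Psap, the precursor of sphingolipid activators, by 0.66 ± 0.10. Autophagy genes had 1 of 23 lower and 0 higher. The TFEB/TFE3 element TCACGTGA was found in 9 of 61 promoters of tested members (14.8%), against 1.75% of all promoters, and in 0 of the 6 promoters of members called lower.

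Heat shock genes were lower where called. Hspa1a, the inducible heat shock protein 70, read 3.8, 3.59 and 3.89 in Rptor GMPs, against 5.32, 8.60 and 6.81 in WT GMPs, 8.90-fold lower (limma adjusted p = 0.00162). The WT arrays spread over more than 3 log2 units, with replicate 2 highest. The Rptor arrays lay near the filter value of 3.86. With 1 GMP array left out, the change of Hspa1a ran from -3.95 to -2.31. Hspa1a has a near-identical copy, Hspa1b, so the signals of the pair may not be separate. Hsph1, a co-chaperone of the same family, was even within genotypes, at 7.95, 7.74 and 7.73 in Rptor GMPs, against 8.74, 8.72 and 8.74 in WT GMPs, 1.91-fold lower. Of 29 tested heat shock genes, 4 were lower and 0 higher (13.8% called, against 11.9% of all tested genes), with a median of -0.07. Without Rptor replicate 3, 7 were lower. Of 36 genes of the endoplasmic reticulum, 5 were lower and 1 higher (16.7% called). The lower count was 3 without Rptor replicate 1 or WT replicate 2 and 2 without Rptor replicate 2 or WT replicate 1. Ero1b, an oxidase for disulphide bonds, fell by 0.83 ± 0.11, and Xbp1, a factor of the unfolded protein response, rose by 0.67 ± 0.11, with Rptor arrays from 11.22 to 11.39 and WT arrays from 10.65 to 10.67.

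Metallothioneins, which bind zinc and copper, were higher. Mt1 read 9.36, 9.27 and 9.39 in Rptor GMPs, against 8.50, 8.37 and 8.51 in WT GMPs, and Mt2 read 6.47, 6.57 and 6.72 in Rptor GMPs, against 4.59, 5.22 and 5.09 in WT GMPs. They rose by 0.88 ± 0.11 and 1.62 ± 0.23 (limma adjusted p = 5.68e-06 and 4.49e-05). The zinc exporter gene Slc30a4 rose by 1.31 ± 0.25 and the importer gene Slc39a10 fell by 0.60 ± 0.12. In this list 4 of 19 tested genes were higher and 1 lower.

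Secreted complement and coagulation proteins had 8 of 32 tested genes higher and 3 lower (5 higher without Rptor replicate 2), with a median of 0.16. C4b, complement component 4, read 8.07, 8.56 and 8.23 in Rptor GMPs, against 5.18, 5.40 and 5.54 in WT GMPs, 7.53-fold higher. Ambp, the precursor of a protease inhibitor, was 7.14-fold higher, with Rptor arrays from 7.42 to 8.36 and WT arrays from 4.77 to 5.35. The receptor gene C3ar1 (1.12 ± 0.16) and C1qb, a chain of complement C1q (1.46 ± 0.27), rose, while Cfp, properdin (-0.99 ± 0.14), and Serpinf1, a serpin (-1.26 ± 0.14), fell.

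Signalling and survival genes changed singly. FoxO factors are kept from the nucleus by Akt, which mTORC1 restrains through feedback. Of 26 tested FoxO targets, 3 were higher and 3 lower (23.1% called, against 11.9% of all tested genes), with a median of 0.02. Without Rptor replicate 3, 5 were lower. Txnip, which limits glucose uptake, read 10.74, 10.79 and 10.83 in Rptor GMPs, against 9.51, 9.97 and 9.81 in WT GMPs, a rise of 1.02 ± 0.12. The interleukin-7 receptor gene Il7r, also on the FoxO list, rose by 1.13 ± 0.18. In the other direction, the sestrin gene Sesn3 of this list fell by 0.65 (limma adjusted p = 0.00782). Its call was lost without Rptor replicate 2 and without WT replicate 2. Of 40 immediate early genes and ERK feedback genes, 7 were higher and 3 lower, and 4 higher and 5 lower without WT replicate 1. Junb, an AP-1 factor, read 9.11, 9.25 and 9.09 in Rptor GMPs, against 8.24, 8.11 and 8.32 in WT GMPs, a rise of 0.93 ± 0.12, whereas Fosl2 of the same complex fell by 0.93 ± 0.20. Bcl2, which protects from apoptosis, read 8.87, 8.83 and 8.98 in Rptor GMPs, against 9.60, 9.82 and 9.64 in WT GMPs, a fall of 0.80 ± 0.14 (0.50 with the mean of its probe sets, still called).

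Surface and cytoskeletal genes held several of the remaining largest changes. Cd33, an inhibitory lectin of myeloid cells, read 10.32, 10.60 and 10.74 in Rptor GMPs, against 7.36, 8.09 and 7.65 in WT GMPs, 7.24-fold higher. Siglecg, a related lectin, fell by 1.34 ± 0.16, with Rptor arrays from 6.09 to 6.49 and WT arrays from 7.61 to 7.68. Nrp1, a receptor for semaphorins and VEGF, was 5.24-fold lower, with Rptor arrays from 4.80 to 5.50 and WT arrays from 7.45 to 7.65. Cnn3, an actin-binding calponin, was 4.88-fold lower and Tpm4, a tropomyosin, 5.04-fold lower, although Tpm4 changed by -1.25 (adjusted p = 1.85e-05) with the mean of its probe sets. Cyp11a1, the enzyme that starts steroid hormone synthesis, was 3.39-fold higher, with 0.94 on the log2 scale (adjusted p = 0.00017) with the mean of its probe sets. Xrcc5 (Ku80), a DNA end-binding repair protein, read 7.29, 7.34 and 7.65 in Rptor GMPs, against 5.66, 5.70 and 5.65 in WT GMPs, 3.39-fold higher. Among the other rises, Anpep, an aminopeptidase, was 4.59-fold, Clu (clusterin) 4.32-fold and Lgmn, a lysosomal endopeptidase, 3.36-fold higher.

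The genotype change was also set against that in common myeloid progenitors (CMPs), the step before GMPs, through the interaction term of the same fit. The CMP change comes from other arrays, 3 of each genotype. The difference was called for 416 genes (2.5%), 111 with a higher and 305 with a lower change in GMPs. Without WT replicate 1 or 2 the count was 276 or 245. Plxdc1, a transmembrane protein, read 5.18, 5.70 and 5.31 in Rptor GMPs, against 7.90, 7.85 and 7.75 in WT GMPs, a fall of 2.44 ± 0.15, whereas its change in CMPs was 1.23, a difference of -3.66 (limma adjusted p = 2.58e-09). Klf4 fell further in GMPs than in CMPs (-2.28 and -0.80, adjusted p = 0.000375 for the difference), and so did Nusap1 (-0.99 and 0.20, adjusted p = 0.000159). Cebpe was level in GMPs but differed by -1.76 in CMPs (adjusted p = 0.000303 for the difference). Among genes with a larger rise in GMPs, Svep1, an extracellular matrix protein, changed by 3.60 in GMPs and 1.25 in CMPs (adjusted p = 1.99e-06 for the difference) and by 1.83 in GMPs with the mean of its probe sets. Lipg changed by 2.74 in GMPs and 0.48 in CMPs (adjusted p = 0.00099).

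**Figure D5:**
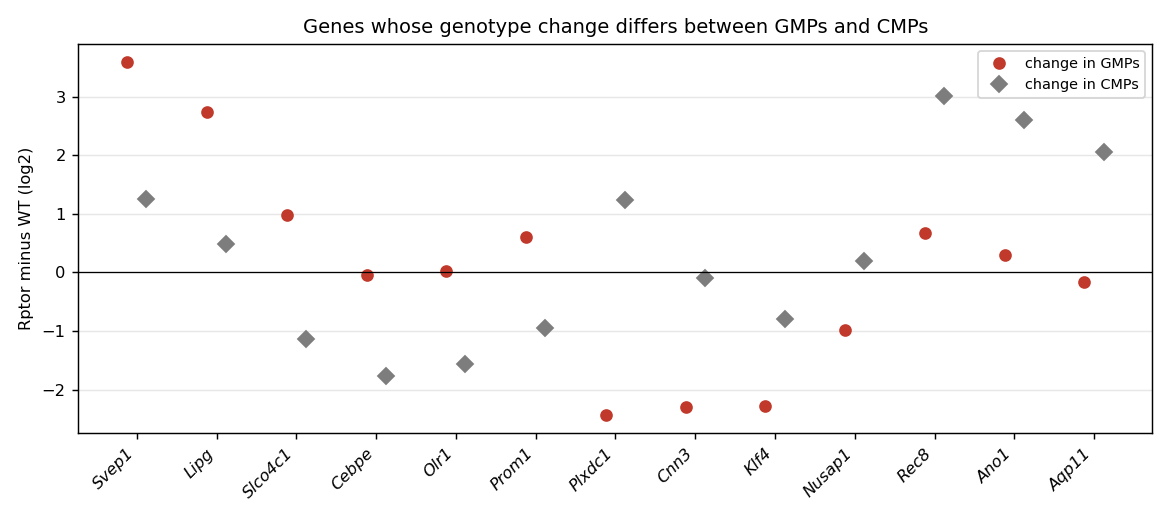
Genotype change (Rptor minus WT, log2, vertical axis) of 13 genes called in the interaction, in GMPs (red circles) and in CMPs (grey diamonds), each from 3 arrays per genotype. Plxdc1 lies at -2.44 in GMPs and 1.23 in CMPs, and Rec8 at 0.68 in GMPs and 3.01 in CMPs.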

How the data were processed

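The values are log2 signals per probe set as deposited by the authors, for 41345 probe sets on 20 arrays. Per the labels' protocols, 1 to 5 ng of total RNA was amplified and labelled with biotin. The tools RMA, Partek 6.6 and limma come from the submitters' processing notes, which give no roles for them. RMA gives arrays a common distribution, so a change shared by most transcripts is lost. Scanner files were not used, no probe's detection was judged, and no source names the build of the probe sets.

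Of the probe sets, 23521 had 1 gene symbol, 1814 had several and 16010 were unnamed here. The probe set of highest mean was kept for each of 22180 genes, and 5542 genes below the 25th percentile (3.86) were left out. limma 3.58.1 in R 4.3.3 fitted a mean for each of 6 groups over all 20 arrays, with Benjamini-Hochberg adjustment over 16638 genes. On simulated data for these genes, 51% of genes changed by 0.5, 96% by 1 and 100% by 2 log2 units were called. The number of arrays limits the precision. The main fit did not pair samples by replicate number.

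The members and lists were chosen with earlier results of these data known. Genes were named by rule: the 25 largest called, non-overlapping changes per direction (predicted genes, smell receptors and small RNAs aside), up to 6 members of smallest p and the defining genes of each list, a set of pathway, gate and fate genes, the 10 largest interactions per direction, and up to 2 genes per motif, here with a match before the start. The lists hold 1752 names, of which 1550 had a probe set and 1508 were tested. Alternatives changed the filter (none, or the 50th percentile), the choice of probe set (mean of all), the arrays fitted (GMP alone, or GMP and CMP), the model (replicate block, array weights, trended robust eBayes), the scaling (quantile, median) and left out each GMP array.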

Additional observations from a re-analysis of the deposited data

Results flagged for a closer look

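The genotype change of 62 named genes differed between GMPs and CMPs by the interaction term of the limma fit, at an adjusted p under 0.05. Values are the GMP change minus the CMP change (log2), each change being Rptor minus WT. It was above 0 for Svep1 (2.36), Lipg (2.26), Slco4c1 (2.12), Cebpe (1.72), Gpc3 (1.67), Thbs1 (1.63), Olr1 (1.59), Prom1 (1.55) and Abca13 (1.53). Next came Mgam (1.44), Clu (1.41), S100a8 (1.29), Chil3 (1.27), Lax1 (1.22), Clec12a (1.14), Csf1 (1.14), Cntnap1 (1.14) and Flt3 (1.07). Further genes were Frmd6 (1.00), Acacb (0.73), Anxa3 (0.73), Hk3 (0.72), Ly6c2 (0.72) and Ngp (0.68). It was below 0 for Plxdc1 (-3.66), Rec8 (-2.33), Ano1 (-2.31), Aqp11 (-2.22), Pkd1l3 (-2.22), Nxpe4 (-2.22), Cnn3 (-2.20), Pla2g4c (-2.12) and Radx (-2.02). Next came Slc25a21 (-2.01), Il31ra (-1.74), Klf4 (-1.49), Tpm4 (-1.29), Fads2 (-1.28), Nusap1 (-1.18), Sqle (-1.16), Cd180 (-1.14) and Itga1 (-1.10). Further genes were Dglucy (-1.10), S100a10 (-1.06), Stxbp6 (-1.06), Nrp1 (-1.03), Klrk1 (-0.91), Itgb7 (-0.90), Cmpk2 (-0.80), Tfe3 (-0.80) and Kif23 (-0.79). Others were Ckap2l (-0.78), Ncaph (-0.76), Mthfd2 (-0.75), Adgre1 (-0.72), Lipa (-0.70), Csf1r (-0.69), Ctsc (-0.68), Mt1 (-0.65) and Mki67 (-0.63). The list went on with Aurkb (-0.60) and Psap (-0.58). Of these 62 differences, 34 were called under all alternatives that tested the gene and 28 were lost under at least 1. The 28 are Abca13, Acacb, Adgre1, Anxa3, Aurkb, Chil3, Clu, Cmpk2, Cntnap1, Csf1, Csf1r, Ctsc, Flt3, Frmd6, Hk3, Kif23, Klrk1, Lipa, Mgam, Mki67, Mt1, Mthfd2, Ngp, Nrp1, Psap, Tfe3, Thbs1 and Tpm4. With the mean of the probe sets of a gene, the difference was -0.51 for Tpm4 (limma adjusted p = 0.355) and 1.22 for Svep1 (adjusted p = 0.000136). S100a10 was chosen after its values were seen. Groups of 3 arrays are too small for the test of single outlying samples.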

How the results depend on the processing

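The 1980 calls (727 higher, 1253 lower) became 5328 (2459 higher, 2869 lower) with array weights, of which 1972 were shared. Leaving out 1 GMP array gave 1183 to 2086 calls, 417 to 676 higher and 766 to 1410 lower, the lowest without WT GMP replicate 2 and the highest without Rptor GMP replicate 3. The 416 interaction calls became 654 with GMP and CMP arrays fitted together, 1980 with array weights, and 245 to 521 with 1 GMP array left out. With the replicate block there were 1529 calls, 1471 of them shared, and 309 interaction calls. Same-numbered arrays correlated at -0.03, -0.34 and -0.34 in their deviations from the group means. Rptor replicate 2 correlated with WT replicate 3 at 0.33, and Rptor replicate 3 with WT replicate 2 at 0.34. Deviations of 3 arrays from their own mean are not independent, so these values cannot tell if the samples were paired. The S phase list had 7 lower genes with the block. Of 251 named calls, 187 held under all 16 alternatives, 64 were lost under at least 1 and 0 reversed. The block lost 24 named calls. The cause of these differences was not tested. With 3 arrays a genotype and a median SE of 0.14, called changes started at 0.26, and signal over background was not assessed, so dim genes may differ unseen.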

Other observations

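The genes of the next 2 paragraphs were chosen after their values were seen. S100a10, a partner of annexin A2, read 8.05, 7.89 and 8.30 in Rptor GMPs, against 9.99, 10.11 and 9.89 in WT GMPs, a fall of 1.92 (limma adjusted p = 1.19e-09). Lgals1, galectin 1, read 9.87, 9.57 and 9.79 in Rptor GMPs, against 11.49, 11.64 and 11.44 in WT GMPs, a fall of 1.78. S100a6 fell by 1.65 and S100a4 by 1.62, and Met, the receptor of hepatocyte growth factor, fell by 1.89. In all of them the 3 Rptor arrays lay below the 3 WT arrays.

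Among genes that rose, Per1, a repressor of the clock, read 9.17, 8.99 and 8.94 in Rptor GMPs, against 7.37, 7.31 and 7.5 in WT GMPs, a rise of 1.64 (limma adjusted p = 5.79e-09). Bhlhe40, a clock repressor that many signals induce, rose by 1.40. Lrg1, a secreted glycoprotein of neutrophils, read 9.57, 9.69 and 9.55 in Rptor GMPs, against 7.81, 7.87 and 8.03 in WT GMPs, a rise of 1.70. Nrp2, a semaphorin receptor, rose by 1.57 and the kinase gene Pim1 by 1.16 (0.65 when its probe sets were averaged).

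Of the 50 tested genes nearest Rptor on chromosome 11, 25 on each side, 7 were called (14%), and of the nearest 100, 16 (16%), against 11.9% of all tested genes. Of 10 tested genes of the mitochondrial genome, 5 were lower and 0 higher, with a median of -0.29, and this set was also chosen after its values were seen. Of the 5, CYTB, ND2, ND4 and ND4L lost their calls without Rptor replicate 2 and without WT replicate 1 or 2, which leaves 1. ND3, a subunit of complex I, fell by 0.64 (limma adjusted p = 0.00085). ND2 read 9.04, 8.50 and 9.27 in Rptor GMPs, against 9.77, 9.85 and 9.17 in WT GMPs, so its groups overlapped.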
